A study of Mus musculus with 6 samples.

Results

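The genes described here are 32 targets of the tumour suppressor p53 and genes of the DNA damage response, chosen by name from the 32973 genes of the deposited expression table, and each had exactly 1 row. RNA was given as FPKM (fragments normalised to the length of the transcript and the size of the library) in mouse muscle stem cells, which express Pax7 and rebuild injured muscle. The primary cells had been purified by cytometry and kept for 3 days in a growth culture. The Med23KO group (3 libraries) had the genotype Med23flox/flox::Pax7CreERT2, and the Ctrl group (3 libraries) had the genotype Med23flox/flox, so both groups carried the loxP-flanked alleles of the Mediator subunit gene Med23. Cre was present in the knockout group alone, as a fusion to a tamoxifen-responsive receptor driven from Pax7, and no Cre-carrying group without the loxP-flanked alleles is among these samples. What Cre does and what the loss of Med23 does cannot be told apart. Dose and timing of tamoxifen, age, and whether each library is a separate animal or culture are details not given in the sources used here, and the p-values therefore describe only how these libraries spread, which may be technical.

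p53 is a transcription factor that is held low in unstressed cells by the ubiquitin ligase Mdm2 and its relative Mdm4. DNA breaks activate the kinases Atm, Atr and Prkdc and the checkpoint kinases, p53 is then stabilised, and it switches on genes for cell cycle arrest, repair and cell death together with its own inhibitors. Cre recombinase can cut DNA at sequences in the genome that resemble loxP, and high Cre activity is known to set off this response in cultured cells. The comparison of knockout and control cells asks whether the transcripts of damage targets were higher where Cre was present.

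They were not higher as a group. Of the 32 genes, 31 had a 6-library mean of 1 FPKM or more and were tested, and 0 of the 31 were higher and 0 lower in Med23KO at a limma adjusted p under 0.05, beside 2.91% of all 12336 tested genes (1.49% higher and 1.42% lower). By that share about 1 call would be found among 31 genes, so a count of 0 lies close to the background. At an unadjusted p under 0.05 the count was 2 of 31, Trp53 and Phlda3, both lower in Med23KO, beside 19.7% of all tested genes (10.9% lower and 8.84% higher). In the authors' deposited table, made with Cuffdiff, 3 of 31 were called, Trp53, Phlda3 and Pmaip1, all lower in the knockout, beside 15.7% of the genes tested there (7.04% lower and 8.61% higher).

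Some of these genes carry a match to the p53 binding consensus near an annotated start. Promoter windows of 300 bases (250 before to 50 after a RefSeq transcription start, build GRCm38.p6) were at hand for 24 of the 32 genes. The p53 consensus decamer, a palindrome of 10 bases that reads the same on both strands, was searched for without mismatch. It was found for 10 of the 24 genes (41.7%), against 9.56% of all 27018 genes with a window. Per window the shares were 32.4% for these genes and 8.36% for all windows. The stretches that hold it are shown for those 10 genes and for Cdkn1a, the p21 gene and the best-known p53 target, since their transcripts are the readout described below. Capitals mark the decamer, and all are written 5′ to 3′ on the strand of the gene.
Trp53 (chr11:69580264-69580313, plus strand): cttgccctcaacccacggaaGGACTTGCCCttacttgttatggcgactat
Mdm2 (chr10:117710915-117710964, minus strand): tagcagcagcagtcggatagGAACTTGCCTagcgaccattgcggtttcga
Ppm1d (chr11:85311102-85311151, plus strand): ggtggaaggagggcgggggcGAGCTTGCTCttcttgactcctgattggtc
Ccng1 (chr11:40755442-40755491, minus strand): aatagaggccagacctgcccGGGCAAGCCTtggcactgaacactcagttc
Bax (chr7:45467070-45467119, minus strand): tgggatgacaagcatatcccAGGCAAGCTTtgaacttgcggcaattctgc
Aen (chr7:78895917-78895966, plus strand): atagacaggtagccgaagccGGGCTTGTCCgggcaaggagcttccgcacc
Ei24 (chr9:36797315-36797364, minus strand): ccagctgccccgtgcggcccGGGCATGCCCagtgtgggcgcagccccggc
Polk (chr13:96519389-96519437, minus strand): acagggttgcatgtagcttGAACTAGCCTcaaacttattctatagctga
Gadd45a (chr6:67037418-67037467, minus strand): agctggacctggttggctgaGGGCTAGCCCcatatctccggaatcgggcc
Sesn1 (chr10:41887246-41887295, plus strand): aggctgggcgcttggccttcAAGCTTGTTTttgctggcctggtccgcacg
Cdkn1a, upstream decamer (chr17:29090886-29090935, plus strand): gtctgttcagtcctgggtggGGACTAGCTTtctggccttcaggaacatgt
Cdkn1a, downstream decamer (chr17:29090908-29090957, plus strand): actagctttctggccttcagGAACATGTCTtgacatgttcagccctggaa

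The decamer began 75 bases before the start of Trp53, 186 before that of Mdm2, 185 before that of Ccng1 and 201 before that of Bax. In the window of Cdkn1a a pair of decamers lay at most 13 bases apart, which is the arrangement of a full p53 site and was found in 0.0731% of all windows. The 10 bases directly after its downstream decamer miss the consensus at their first base alone, so the exact search did not count them. Which of these stretches p53 binds was not tested. A match describes letters in a window and does not show binding, and many known p53 sites lie outside such windows. The 10 tested genes with a decamer had a median log2 fold change of -0.15 (range -0.36 to 0.39), and the 14 without one a median of -0.09 (range -0.44 to 0.33).

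The labels were checked on Med23 itself. It had 5.10, 5.86 and 4.23 FPKM in Med23KO, against 10.4, 11.7 and 10.2 FPKM in Ctrl, and fell by 0.96 on the log2 scale (SE 0.133) with a limma adjusted p of 0.0197. Summed muscle stem cell and myoblast markers, among them Pax7 and Myod1, overlapped, at 1503 to 2296 FPKM in Med23KO and 1653 to 2326 FPKM in Ctrl, with Myod1 the largest part. Within that list 0 of 10 passed in limma (2 at an unadjusted p under 0.05), but Itga7, an integrin gene, had 58.1 ± 6.96 FPKM in Med23KO and 98.5 ± 17.2 FPKM in Ctrl without overlap (SD, n = 3 each, limma adjusted p = 0.0515). Cdh15, the M-cadherin gene, had 42.1, 32.2 and 21.7 FPKM in Med23KO and 22.5, 18.9 and 13.4 FPKM in Ctrl (limma adjusted p = 0.168). Other marker sums did not all overlap. The 10 markers of differentiating muscle cells summed to 252 to 285 FPKM in Med23KO and 81.4 to 148 FPKM in Ctrl. Of the 9 that were tested, 7 were higher in Med23KO without overlap, beside 10% of all tested genes. In limma 3 of the 9 passed, all higher, beside 2.91% of all tested genes. These were Mef2c, Mymx and Actc1 (limma adjusted p = 0.0197, 0.0385 and 0.0410), and Mymx averaged only 0.363 FPKM in Ctrl. The 8 markers of fibroblasts and fibro-adipogenic progenitors summed to 226 to 340 FPKM in Med23KO and 168 to 211 FPKM in Ctrl. Col3a1 was the largest part of that sum. The 7 that were tested all had a positive fold change, and 3 were higher without overlap, beside 10% of all tested genes. In limma 0 of the 7 passed. The authors' deposited table called 4 of the 7, all higher, beside 15.7% of the genes tested there. Endothelial markers summed to 4.31 to 7.08 FPKM in Med23KO and 5.26 to 10.3 FPKM in Ctrl, and leukocyte markers to 11.5 to 37.6 FPKM and 11.9 to 24.9 FPKM in the same order. The defining leukocyte gene Ptprc averaged 0.0530 FPKM in Med23KO and 0.0435 FPKM in Ctrl, and 4 of the 6 leukocyte markers averaged under 1 FPKM. Lyz2, the largest part of the leukocyte sum, averaged 19.3 ± 13.8 FPKM in Med23KO and 17.4 ± 6.16 FPKM in Ctrl (SD, n = 3 each). In bulk RNA, fewer cells of a type and less RNA per cell cannot be told apart, and the part of these markers in the results was not tested. The number of fragments per library is unknown. The sum of FPKM was 599738 to 675095 in Med23KO and 697886 to 746973 in Ctrl. The gene Rmrp alone held 173041 to 205244 FPKM of that sum in Med23KO and 225416 to 239590 FPKM in Ctrl.

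**Figure D1:**
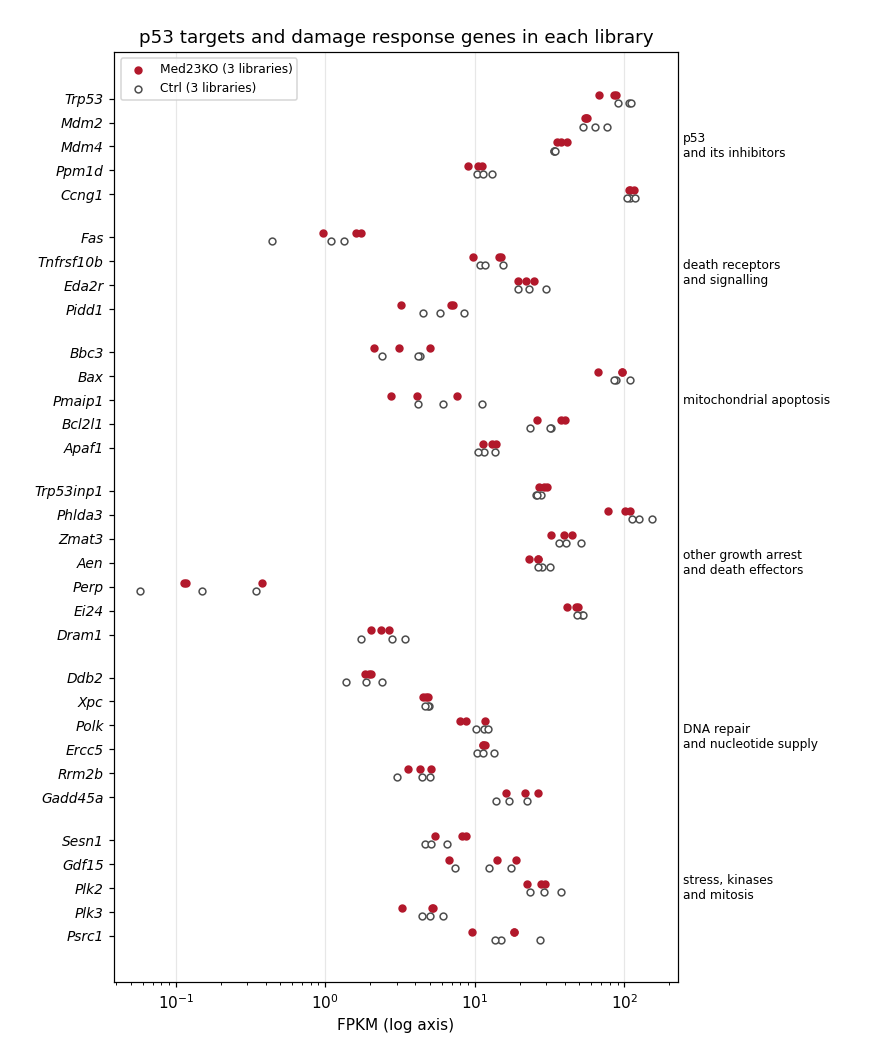
FPKM on a log axis of the 32 genes, in rows grouped by role, with the 3 Med23KO libraries as filled points above the 3 Ctrl libraries as open points. The groups lie apart only for Trp53, Phlda3, Aen and Mdm4, and Perp lies below 1 FPKM in each library.

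The levels spanned a wide range, and several targets were abundant in both groups. FPKM is scaled to transcript length, so levels can be set side by side between genes. Phlda3, Ccng1, Trp53, Bax and Mdm2 had mean levels above those of 95.5%, 95.4%, 94.2%, 94.1% and 90.7% of all tested genes. Fas, which encodes a death receptor, lay above 2.46% of them. It passed the filter through its knockout mean, with 1.72, 1.61 and 0.962 FPKM in Med23KO and 1.34, 0.439 and 1.09 FPKM in Ctrl. Perp, which encodes a membrane protein of cell contacts and of apoptosis, did not pass the filter, with 0.379, 0.116 and 0.113 FPKM in Med23KO and 0.0577, 0.150 and 0.345 FPKM in Ctrl.

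Differences between the groups were small. The median log2 fold change of the 31 tested genes was -0.10, computed, like each fold change given here, on log2(FPKM + 1), a scale that shrinks the differences of genes with low levels. Over all tested genes the median was -0.03. Of the 31 values, 19 lay below 0 (61.3%) and 12 above, against 54.9% below 0 among all tested genes. For 20 of the 31 genes the difference between group means was smaller than the SD between libraries within a group. The median was 0.00286 without Med23KO replicate 3 and 0.00615 without Ctrl replicate 1, so its sign rested on each of those libraries.

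The 95% intervals bound changes in FPKM + 1, not in FPKM itself. On that scale the upper limit lay under a 1.5-fold rise for 26 of the 31 genes. It lay under a 2-fold rise for 31 of 31, without adjustment for the number of genes. For genes with low levels these limits depend on the pseudocount. The log2 fold change of Fas was 0.33 (SE 0.230) here and 0.62 (SE 0.438) with a pseudocount of 0.1 FPKM. Under a 1.5-fold rise lay 78.5% of all tested genes. The 5 genes whose interval reached a 1.5-fold rise were Fas, Bcl2l1, Gadd45a, Sesn1 and Gdf15. Intervals of 17 genes lay within 1.5-fold in both directions, beside 60.3% of all tested genes.

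**Figure D2:**
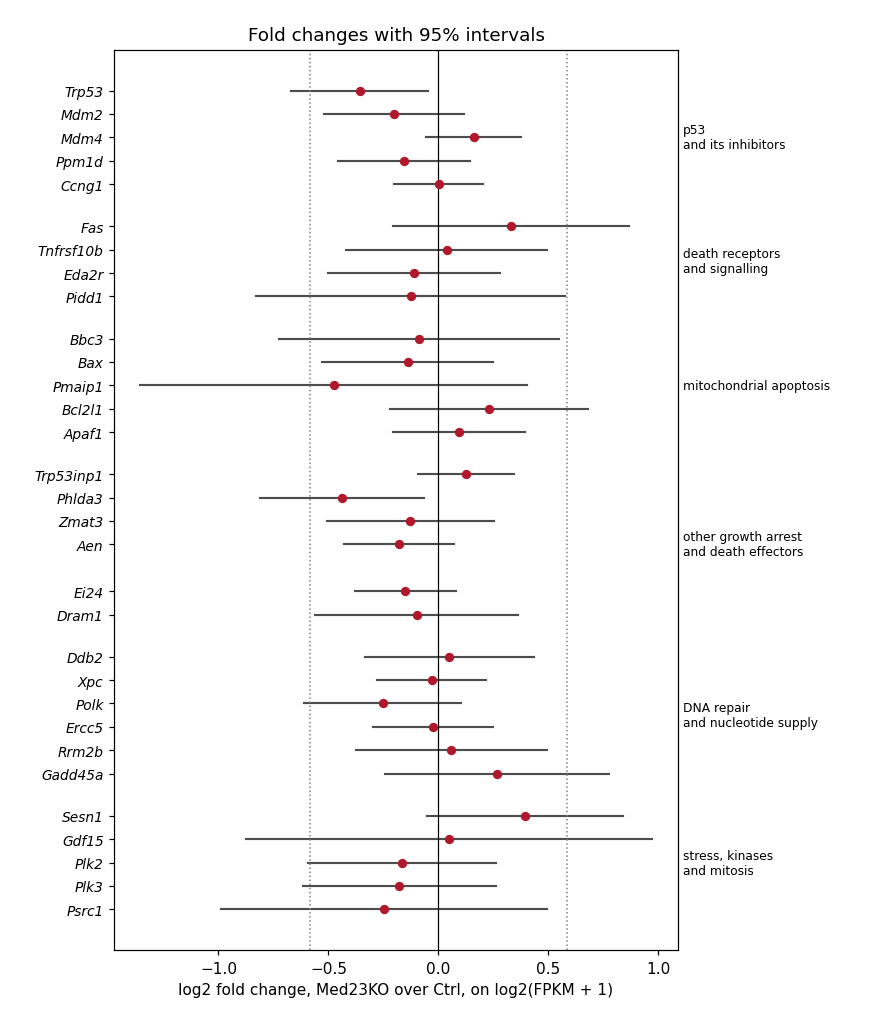
Log2 fold change of Med23KO over Ctrl on log2(FPKM + 1) for the 31 tested genes (points) with limma's 95% intervals (lines), grouped by role. Dotted lines mark 1.5-fold in either direction, and of the 31 intervals those of Trp53 and Phlda3 alone do not cross 0.

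The ranges of the groups did not overlap for 4 of the 31 tested genes (12.9%), beside 24.7% of all tested genes (14.7% lower and 10% higher). Trp53, Phlda3 and Aen were lower in each Med23KO library and Mdm4 was higher. A share below the background does not set these 4 apart from other genes.

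Among p53 itself and its inhibitors, Trp53 had the lowest fold change. Trp53 (ENSMUSG00000059552.13, on the plus strand of mm10 chromosome 11 from 69580359 to 69591873) had 85.3, 87.8 and 67.5 FPKM in Med23KO, against 107, 111 and 90.1 FPKM in Ctrl. The 3 knockout values lay below the lowest control value, but Med23KO replicate 2 came within a few FPKM of Ctrl replicate 3. The mean was 80.2 ± 11.0 FPKM in Med23KO and 103 ± 11.1 FPKM in Ctrl (SD, n = 3 each), 78.0% of the control level. Its log2 fold change was -0.36 (SE 0.134, 95% interval -0.67 to -0.05) and did not pass the test (limma adjusted p = 0.196), while the authors' deposited table gave q = 0.0198. The exact permutation p (two-sided) was 0.1, and 3 against 3 libraries cannot give a smaller one. A processed pseudogene of Trp53 is annotated, and the sources used here do not say how its reads were assigned. The level of the transcript does not show the level of the protein, which is set largely by degradation.

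Mdm2, the ligase that degrades p53 and itself a p53 target, had 54.7, 56.2 and 55.0 FPKM in Med23KO, against 77.1, 53.2 and 63.3 FPKM in Ctrl. The knockout libraries were close to each other and lay within the control range. Its log2 fold change was -0.20 (95% interval -0.52 to 0.12, limma adjusted p = 0.475, exact permutation p = 0.4). Mdm4, which blocks the activating domain of p53, had 37.7, 41.1 and 35.4 FPKM in Med23KO, against 33.7, 33.6 and 34.3 FPKM in Ctrl. The groups did not overlap, but the difference was small, with a log2 fold change of 0.16 (limma adjusted p = 0.397). Mdm4 also has an annotated pseudogene. The cyclin G1 gene Ccng1, among the most responsive p53 targets in mouse tissues, had 107, 115 and 109 FPKM in Med23KO, against 109, 105 and 117 FPKM in Ctrl. Its means were 110.4 ± 4.51 and 110.3 ± 6.23 FPKM in that order (SD, n = 3 each), and its 95% interval of -0.20 to 0.20 (log2) was the narrowest in the set. The phosphatase gene Ppm1d, whose product switches p53 and the damage kinases off, averaged 10.2 ± 1.13 FPKM in Med23KO and 11.5 ± 1.36 FPKM in Ctrl.

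Receptors and adaptors of death signalling overlapped between the groups. Fas, Tnfrsf10b (a receptor of the death ligand TRAIL), Eda2r (a receptor of ectodysplasin A2) and Pidd1 (the scaffold of a caspase-2-activating complex) had log2 fold changes between -0.13 and 0.33. Eda2r averaged 22.1 ± 2.84 FPKM in Med23KO and 24.1 ± 5.25 FPKM in Ctrl (SD, n = 3 each). Tnfrsf10b averaged 13.1 ± 2.98 FPKM in Med23KO and 12.6 ± 2.44 FPKM in Ctrl. Their lowest adjusted p was 0.499, that of Fas.

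Genes of the mitochondrial pathway of apoptosis showed differences smaller than the spread within groups in 5 of 5 cases. Bax, whose product permeabilises the outer mitochondrial membrane, had 95.9, 95.9 and 67.1 FPKM in Med23KO, against 109, 88.4 and 85.8 FPKM in Ctrl. The highest value was that of a control and the lowest that of a knockout library, and the groups overlapped (log2 fold change -0.14, limma adjusted p = 0.707). Bax overlaps another annotated protein-coding gene, Gm45808, on the same strand.

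Pmaip1, the Noxa gene, had 2.77, 4.11 and 7.55 FPKM in Med23KO, against 4.17, 6.09 and 11.1 FPKM in Ctrl. The authors' deposited table called it lower (q = 0.0235), whereas in limma the spread between libraries exceeded the difference (log2 fold change -0.48, SE 0.377, adjusted p = 0.553). Much of that spread followed the replicate number, and each knockout value lay below the control value of the same number. In limma with a replicate block Pmaip1 passed (adjusted p = 0.0138), but whether the numbers pair the libraries is not stated in the sources used here. Bbc3, the PUMA gene, averaged 3.41 ± 1.45 FPKM in Med23KO and 3.61 ± 1.05 FPKM in Ctrl (SD, n = 3 each). Apaf1, the core of the apoptosome, averaged 12.7 ± 1.34 FPKM in Med23KO and 11.9 ± 1.51 FPKM in Ctrl. Bcl2l1, which makes the survival protein BCL-XL as its main product, averaged 34.7 ± 7.59 FPKM in Med23KO and 29.2 ± 4.99 FPKM in Ctrl. Neither the death-promoting nor the protective genes passed the test.

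Phlda3 stood lowest among the other effectors of arrest and death. Its product competes with the kinase Akt for membrane lipids and thereby restrains Akt. Phlda3 (ENSMUSG00000041801.5, on the plus strand of mm10 chromosome 1 from 135766119 to 135769136) had 108, 101 and 78.3 FPKM in Med23KO, against 153, 125 and 112 FPKM in Ctrl. The groups did not overlap, though Med23KO replicate 1 came close to Ctrl replicate 3. The mean was 95.8 ± 15.6 FPKM in Med23KO and 130.1 ± 20.9 FPKM in Ctrl (SD, n = 3 each), 73.7% of the control level. Its log2 fold change was -0.44 (SE 0.159, 95% interval -0.81 to -0.07, limma adjusted p = 0.187), and the authors' deposited table gave q = 0.00243. Its promoter window held 0 copies of the decamer.

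Aen, which encodes a nuclease that promotes apoptosis, had 26.3, 26.4 and 23.1 FPKM in Med23KO, against 31.7, 28.1 and 26.6 FPKM in Ctrl. The groups were separated by less than 1 FPKM (log2 fold change -0.18, limma adjusted p = 0.417). Zmat3, which encodes an RNA-binding zinc finger protein, averaged 39.1 ± 6.22 FPKM in Med23KO and 42.9 ± 7.64 FPKM in Ctrl. Ei24, which encodes a membrane protein of the endoplasmic reticulum, averaged 45.9 ± 3.83 FPKM in Med23KO and 50.9 ± 2.38 FPKM in Ctrl. Trp53inp1, whose product takes part in p53-driven death and in autophagy, averaged 28.9 ± 1.77 FPKM in Med23KO and 26.4 ± 1.06 FPKM in Ctrl. Dram1, a lysosomal autophagy gene, averaged 2.34 ± 0.329 FPKM in Med23KO and 2.64 ± 0.846 FPKM in Ctrl (SD, n = 3 each). All 6 tested genes of this group missed the threshold.

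Repair genes under p53 control lay close to equality. The 6 genes had a median log2 fold change of 0.01, the groups overlapped in 6 of 6, and for 5 of the 6 the difference was smaller than the spread within groups. Xpc, which recognises distorted DNA in nucleotide excision repair, averaged 4.69 ± 0.160 FPKM in Med23KO and 4.81 ± 0.180 FPKM in Ctrl (SD, n = 3 each), a log2 fold change of -0.03 (95% interval -0.28 to 0.22). Ddb2, the other damage sensor of that pathway, averaged 1.95 ± 0.0904 FPKM in Med23KO and 1.87 ± 0.507 FPKM in Ctrl. It overlaps Acp2 on the opposite strand, and the sources used here do not say whether reads were counted by strand. Ercc5, the endonuclease that cuts on one side of the lesion, averaged 11.5 ± 0.171 FPKM in Med23KO and 11.7 ± 1.57 FPKM in Ctrl.

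Rrm2b, the p53-inducible subunit of ribonucleotide reductase, averaged 4.32 ± 0.741 FPKM in Med23KO and 4.15 ± 1.02 FPKM in Ctrl. Polk, a polymerase that bypasses lesions, averaged 9.42 ± 1.94 FPKM in Med23KO and 11.3 ± 1.05 FPKM in Ctrl. Gadd45a, a stress gene that other pathways induce as well, averaged 21.5 ± 5.18 FPKM in Med23KO and 17.7 ± 4.31 FPKM in Ctrl (SD, n = 3 each). Its log2 fold change of 0.27 (95% interval -0.24 to 0.78) was the highest of the repair genes and missed the threshold (limma adjusted p = 0.566).

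Among the stress genes, kinases and mitotic genes, Sesn1 had the highest fold change of all 31. Sesn1, a sestrin gene whose product limits growth signalling through mTORC1, had 8.77, 8.23 and 5.45 FPKM in Med23KO, against 6.49, 4.63 and 5.09 FPKM in Ctrl. A pair of knockout libraries lay above the controls, and Med23KO replicate 3 lay within their range. The fold change was 0.39 on the log2 scale (SE 0.191) with a limma adjusted p of 0.315, and the authors' deposited table gave q = 0.0510. With library weights, which count libraries that deviate less for more, Sesn1 was past the threshold (log2 fold change 0.61, adjusted p = 0.0423). So were 13.8% of all tested genes with these weights. Over all settings the adjusted p of Sesn1 ran from 0.0423 to 0.646.

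Gdf15, a secreted stress cytokine, had 18.9, 14.0 and 6.68 FPKM in Med23KO, against 17.5, 12.4 and 7.38 FPKM in Ctrl. The libraries within each group differed far more than the groups did (log2 fold change 0.05, 95% interval -0.87 to 0.97). Psrc1, which encodes a spindle protein, was similar, with 18.4, 18.3 and 9.57 FPKM in Med23KO and 27.4, 14.9 and 13.6 FPKM in Ctrl. Plk2 averaged 26.4 ± 3.68 FPKM in Med23KO and 30.05 ± 7.15 FPKM in Ctrl, and Plk3, like Plk2 a polo-like kinase gene of the stress response, 4.54 ± 1.12 and 5.21 ± 0.873 FPKM in that order (SD, n = 3 each). Of the 31 genes, 21 had their lowest knockout value in Med23KO replicate 3 and 16 their lowest control value in Ctrl replicate 3. For 21 of 31 the highest control value was that of Ctrl replicate 1.

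Relative to the control mean, the median over the 31 genes was 0.00, 0.04 and -0.15 (log2) in Med23KO replicates 1, 2 and 3, and 0.19, -0.03 and -0.08 in Ctrl replicates 1, 2 and 3. Over all tested genes these medians were 0.01, 0.01 and -0.10 in Med23KO and 0.03, 0.02 and -0.04 in Ctrl. Ctrl replicate 1 was thus the library in which the p53 targets were highest, and no knockout library exceeded it.

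**Figure D3:**
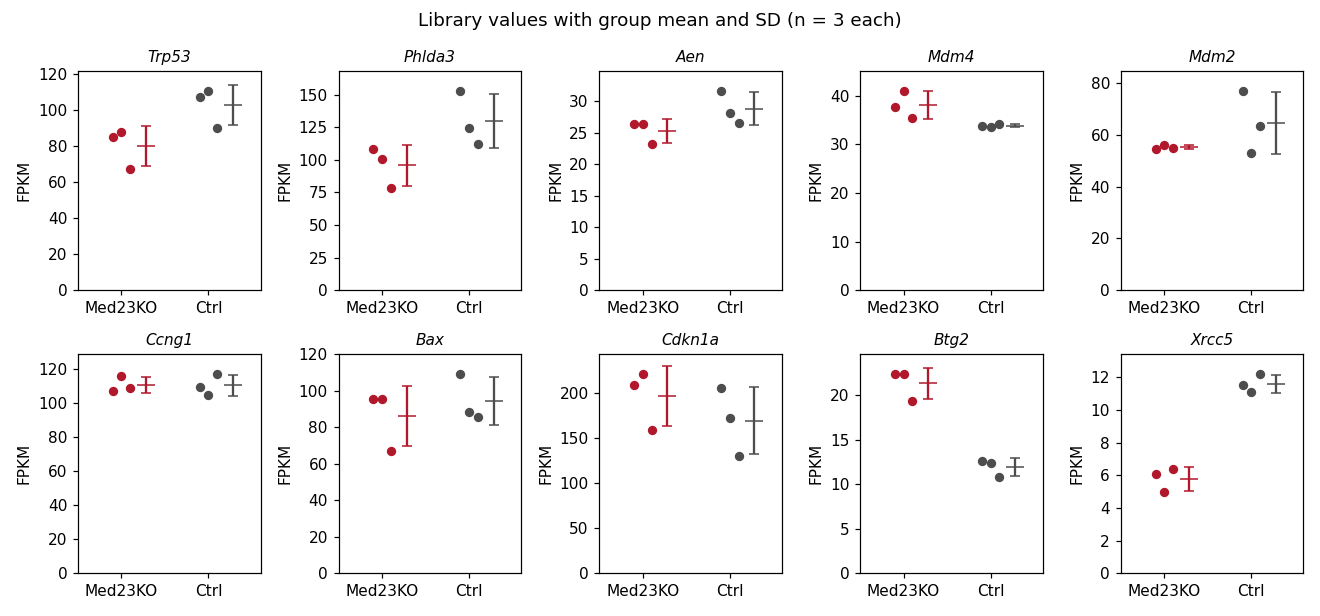
FPKM of 10 genes in each library (points), with the group mean and SD beside them (n = 3 each), Med23KO in red and Ctrl in grey, on axes that start at 0. Btg2 lies higher and Xrcc5 lower in each Med23KO library, while Ccng1 averages 110.4 FPKM in Med23KO and 110.3 FPKM in Ctrl.

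Other p53 targets outside the 32 genes gave 1 call. Cdkn1a, the p21 gene whose product halts the cell cycle, had 209.9, 222 and 160 FPKM in Med23KO, against 206, 173 and 131 FPKM in Ctrl. The groups overlapped, and the log2 fold change of 0.22 (95% interval -0.22 to 0.67) missed the threshold (limma adjusted p = 0.584, exact permutation p = 0.5). Btg2, an antiproliferative gene that p53 and growth factors both induce, had 22.4, 22.3 and 19.4 FPKM in Med23KO, against 12.6, 12.4 and 10.8 FPKM in Ctrl. Btg2 rose in the knockout by 0.79 on the log2 scale (SE 0.111), with a limma adjusted p of 0.0197. The call was lost in 5 of the 6 fits that left out 1 library, all but that without Med23KO replicate 3, with adjusted p-values from 0.00714 to 0.134, while its size on the log2 scale was 0.72 to 0.85 in those 6 fits.

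Of the 23 such targets that were tested, Btg2 alone passed in limma, beside 2.91% of all tested genes, the median log2 fold change was -0.04, and 13 lay below 0. The authors' deposited table called 4 of the 23, beside 15.7% of the genes tested there, namely Btg2 and the noncoding RNA gene Trp53cor1 higher (q = 0.000695 and 0.0140) and Steap3 and Slc19a2 lower (q = 0.00132 and 0.0103). The lowest adjusted p after Btg2 belonged to Steap3, a metal reductase gene, with 4.73 ± 0.675 FPKM in Med23KO and 7.27 ± 0.603 FPKM in Ctrl (limma adjusted p = 0.0782, or 0.0136 with library weights and 0.0371 without Med23KO replicate 3). The thiamine transporter gene Slc19a2 came next, with 23.4 ± 3.04 FPKM in Med23KO and 30.8 ± 5.99 FPKM in Ctrl (SD, n = 3 each, limma adjusted p = 0.254).

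Genes that sense damage and repair double-strand breaks, upstream of p53, lay lower in Med23KO more often than not. Of 19 tested genes of damage sensing and the checkpoint, 17 had a negative fold change, with a median of -0.24, and 0 passed in limma, beside 2.91% of all tested genes. At an unadjusted p under 0.05 there were 5 of 19, beside 19.7% of all tested genes, and the authors' deposited table called 2 of 19 lower, H2afx, the gene of the histone variant that marks breaks, and Hus1 (q = 0.00189 and 0.0358), beside 15.7% there. The smallest adjusted p-values were those of Hus1, part of the ring-shaped checkpoint clamp, with 8.15 ± 0.634 FPKM in Med23KO and 10.6 ± 0.789 FPKM in Ctrl, and of Wee1, an inhibitory kinase of mitotic entry, with 15.4 ± 1.30 FPKM in Med23KO and 19.8 ± 1.66 FPKM in Ctrl (limma adjusted p = 0.145 for both). With library weights Hus1 passed (0.0277). Of 17 genes of double-strand break repair, 12 had a negative fold change, with a median of -0.25, and 1 passed in limma, Xrcc5, beside 2.91% of all tested genes. At an unadjusted limma p under 0.05 there were 6 of 17, beside 19.7%. The groups did not overlap for 9 of the 17 (8 lower and 1 higher), beside 24.7% of all tested genes. In the list of damage sensing and the checkpoint they did not overlap for 4 of 19, all lower. The authors' deposited table called 3 of the 17, Xrcc5, Bard1 and Palb2, all lower (q = 0.000695, 0.000695 and 0.0118), beside 15.7% there. Among all tested genes 54.9% lay below 0.

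Xrcc5 encodes Ku80, which with Ku70 holds broken ends for end joining. Xrcc5 (ENSMUSG00000026187.8, on the plus strand of mm10 chromosome 1 from 72307421 to 72394952) had 6.06, 4.96 and 6.36 FPKM in Med23KO, against 11.5, 11.1 and 12.2 FPKM in Ctrl. Each knockout library lay well below each control library, with a mean of 5.80 ± 0.738 FPKM in Med23KO and 11.6 ± 0.559 FPKM in Ctrl (SD, n = 3 each). It fell by 0.90 on the log2 scale (SE 0.120, limma adjusted p = 0.0186). That call, too, was lost in 5 of the 6 fits without 1 library, all but that without Med23KO replicate 3, with adjusted p-values from 0.00677 to 0.105, and the log2 fold change stayed between -0.96 and -0.80. Bard1 and Palb2, partners of Brca1 and Brca2 in homologous recombination, came next. Bard1 averaged 15.0 ± 2.33 FPKM in Med23KO and 21.9 ± 2.10 FPKM in Ctrl, and Palb2 3.08 ± 0.445 FPKM in Med23KO and 4.55 ± 0.206 FPKM in Ctrl (SD, n = 3 each, limma adjusted p = 0.0918 and 0.116). Bard1 passed with library weights (adjusted p = 0.0125) and without Med23KO replicate 3 (0.0351), and Palb2 with library weights (0.0216).

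Of 18 tested regulators of p53, 0 passed in limma, beside 2.91% of all tested genes, and 4 at an unadjusted p under 0.05, beside 19.7%. The median log2 fold change was -0.10. Calls in the authors' deposited table included Hipk2, a kinase gene that acts on p53, as higher (q = 0.0188) and Ppp1r13l and Npm1 as lower (q = 0.000695 and 0.0110). Ppp1r13l, which encodes the p53 inhibitor iASPP, averaged 3.40 ± 0.376 FPKM in Med23KO and 5.27 ± 0.793 FPKM in Ctrl (limma adjusted p = 0.107), and passed under quantile normalization (adjusted p = 0.0483) and with library weights (0.0233). Rchy1, a ubiquitin ligase gene that acts on p53, averaged 24.0 ± 0.599 FPKM in Med23KO and 20.0 ± 0.585 FPKM in Ctrl (SD, n = 3 each, limma adjusted p = 0.174), and passed with library weights (0.0499).

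**Figure D4:**
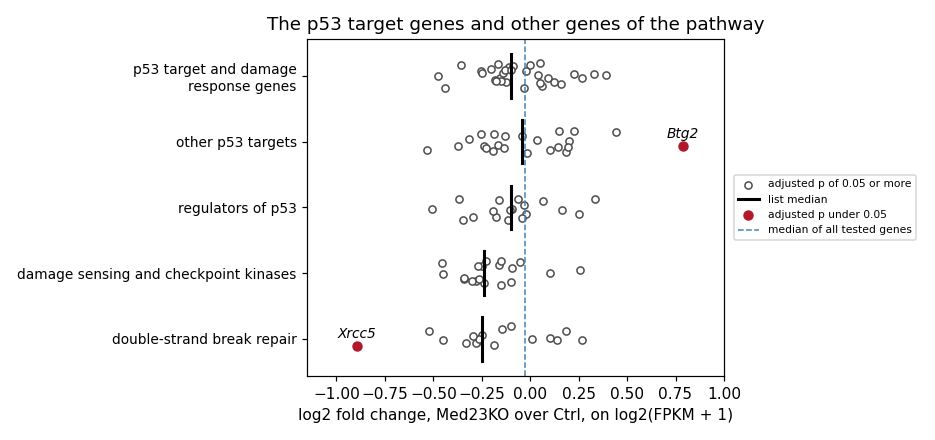
Log2 fold change of Med23KO over Ctrl on log2(FPKM + 1) for each tested gene (points), in rows for the p53 target and damage response genes and for the other lists of the pathway, with list medians as black bars and the median of all tested genes as a dashed line. Btg2 (0.79) and Xrcc5 (-0.90) are the genes past the threshold, and the medians of both upstream lists, -0.24 and -0.25, lie farthest below 0.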

How the data were processed

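The authors deposited FPKM for 6 libraries, scaled by Cuffdiff, beside p-values, q-values and a test score (not used) of their Cuffdiff comparison, per the file headers. The group of a library was read from its title. FastQC, cutadapt, STAR, Cuffdiff and the mm10 build are named in the submitters' processing notes. Their versions, the annotation and the strand setting were not given in the sources used here. Depth per library is unknown, so precision comes from the spread of the libraries. Of 12368 rows with an Ensembl identifier alone, 12316 matched GENCODE vM21, the source of coordinates. Of 122 other listed genes, 4 were found under an older symbol. The checkpoint gene Clspn was misspelled in its list and so left out of it. It had 12.0 ± 1.65 FPKM in Med23KO and 14.6 ± 0.783 FPKM in Ctrl (SD, n = 3 each, limma adjusted p = 0.270). Dates stood in place of 27 symbols.

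On log2(FPKM + 1), limma 3.58.1 (R 4.3.3) was fitted with a mean-variance trend to the 12336 genes whose mean reached 1 FPKM. Genotype was the one factor, tests were two-sided, and p-values were adjusted over all genes (Benjamini-Hochberg, threshold 0.05). Every adjusted p is from this fit unless named otherwise. The code was tested on simulated data. The genes and lists were chosen with earlier results of these data known, so no list was given a p. Among the 32 genes, values were given library by library for those whose groups did not overlap. They were also given so for Med23, other pathway genes that passed, Trp53, Mdm2, Ccng1, Bax and Cdkn1a. From each other list of the pathway, genes that passed and the next 2 by adjusted p were named. Fas, Perp, Pmaip1, Sesn1, Gdf15 and Psrc1 were given library by library after their values were seen. Itga7, Cdh15, Mef2c, Mymx, Actc1, Col3a1, Lyz2, Rmrp, Trp53cor1, H2afx, Hipk2 and Npm1 were also named after their values were seen. Results for some listed genes are not reported here. Alternatives covered pseudocounts of 0.1 and 0.5, filters of 0 and 5 FPKM, quantile normalization, median scaling, no trend, library weights, a replicate block, each library left out, and the authors' q-values.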

Additional observations from a re-analysis of the deposited data

How the results depend on the processing

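The count of p53 target and damage response genes past the threshold was 0 under both other pseudocounts, both other filters, quantile normalization, median scaling, no trend and each library left out. It was 1 of 31 (Sesn1, higher) with library weights, beside 13.8% of all tested genes. By the authors' Cuffdiff q-values it was 3, beside 15.7% of the genes tested there. At an unadjusted p under 0.05, which was added after seeing the data, it was 2, beside 19.7% of all tested genes. With a replicate block it was 5, of which Trp53, Phlda3 and Pmaip1 were lower and Bcl2l1 and Gadd45a higher, beside 22.3% of all tested genes. Same-numbered libraries deviated together for numbers 1 and 3 (correlation 0.44 and 0.56) but not for number 2 (-0.02), and Med23KO replicate 2 correlated best with Ctrl replicate 1 (0.34). Ctrl replicate 2 had correlations of only -0.04, -0.02 and 0.04 with Med23KO replicates 1, 2 and 3. These correlations therefore cannot decide whether the numbers pair the libraries. Whether the numbers mark a shared animal or day is not stated in the sources used here, so the main fit took no pairing. Of the genes named from the other lists, Steap3, Slc19a2, Hus1, Wee1, Bard1, Palb2, Ppp1r13l and Rchy1 also passed with the block (adjusted p from 0.00652 to 0.0299). Among all tested genes, 359 passed, 184 higher and 175 lower. There were 157 without a filter, 568 with median scaling (363 higher and 205 lower), 1700 with library weights, 2757 with the block, 2054 by Cuffdiff, and from 13 to 1144 with 1 library left out, lowest without Med23KO replicate 2 and highest without Med23KO replicate 3. The median of the set ran from -0.17 to 0.00615 with 1 library left out and was -0.00675 with library weights.

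No gene of the set changed sign past the threshold, but 15 of 31 changed sign in at least 1 setting. Under quantile normalization Ddb2 was at -0.0333 and Ercc5 at 0.00417, and under median scaling Ercc5 was at 0.000558. With library weights Eda2r was at 0.10, Pidd1 at 0.0464, Ddb2 at -0.15, Ercc5 at 0.10, Rrm2b at -0.0900 and Psrc1 at 0.0477. With 1 library left out the log2 fold changes ran from -0.23 to 0.0289 for Bax, -0.33 to 0.14 for Bbc3, -0.0363 to 0.0437 for Ccng1, -0.0826 to 0.17 for Ddb2, -0.29 to 0.0514 for Dram1, -0.24 to 0.0483 for Eda2r, -0.10 to 0.0708 for Ercc5, -0.25 to 0.44 for Gdf15, -0.31 to 0.18 for Pidd1, -0.32 to 0.00590 for Plk2, -0.27 to 0.00286 for Plk3, -0.43 to 0.0493 for Psrc1, -0.11 to 0.18 for Rrm2b, -0.0658 to 0.23 for Tnfrsf10b and -0.23 to 0.00615 for Zmat3. The cause was not tested.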
